A study of Homo sapiens with 4 samples.

Results

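Of 10080 circular RNAs with 20 or more counts in radioresistant MDA-MB-468 cells, 538 were at least 4-fold lower after knockdown of HNRNPL. They are described here by their hosts, structure and position. They were chosen on the counts themselves. Each library's counts were scaled to 100000, both knockdown values had to lie below both control values, and the control mean had to be at least 4 times the knockdown mean. The full table held 211599 circles, most of them too rare for the count minimum. The 9542 circles with 20 or more counts that did not pass served as the comparison. Among them were 1209 that passed the mirrored rule, at least 4-fold higher in knockdown.

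MDA-MB-468 is an established line of human breast cancer. All cells were of a derivative made resistant by 50 Gy of fractionated radiation, so the controls carried that history too. In 2 libraries, labelled shCtrl and with the genotype WT, the cells had a control short hairpin RNA, and in 2 others, labelled shHNRNPL, a hairpin against HNRNPL. Per the labels' protocols, a reverse transcriptase that can run around a circle several times copied total RNA, phi29 polymerase amplified the cDNA, and long reads were sequenced. The labels number 2 replicates in each group and do not say whether they were separate cultures, so the spread between them may be technical. The knockdown cells carried a single hairpin sequence, and the genotype label calls the knockdown stable.

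Circular RNA forms when the spliceosome joins the end of an exon to the start of the same or an earlier exon, a step called back-splicing. It competes with linear splicing, and complementary repeats or RNA-binding proteins on the flanking introns can favour it. HNRNPL binds CA-rich RNA and can enhance or silence nearby splice sites. The circle, its host gene's linear RNA and the host's other circles can change separately, and only circles were counted here.

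The sequences at the joints show what a back-splice looks like. No genome sequence was used here, so joints could be read only where a member's boundary lay inside a window of RefSeq around the start of a gene on either strand, as for the 4 members shown. In 3 of them the 5′ boundary of the circle is shown and the capitals mark the AG just before it, the end of an acceptor site. In STAMBP the 3′ boundary is shown and the capitals mark the GT just after it, the start of a donor site. Each window has 30 bases on either side of the boundary, from RefSeq on GRCh38.p14, written 5′ to 3′ on the strand of the circle.
RC3H1, chr1:173993106-173993165, minus strand: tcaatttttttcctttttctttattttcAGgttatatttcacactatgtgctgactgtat
PIK3R3, chr1:46131927-46131986, minus strand: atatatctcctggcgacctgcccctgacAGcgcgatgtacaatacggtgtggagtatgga
ARHGAP12, chr10:31908897-31908956, minus strand: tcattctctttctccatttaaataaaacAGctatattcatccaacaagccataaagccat
STAMBP, chr2:73850484-73850543, plus strand: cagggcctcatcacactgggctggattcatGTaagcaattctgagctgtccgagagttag
All 4 windows carry the dinucleotide that the deposited table gives for them. Over all members, 523 of 538 (97.2%) had an AG-GT motif, against 97.4% of the circles that did not pass.

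These joints belong to members with more counts than the median member, which had 29 in all. The 12-exon RC3H1 circle, from a gene for an RNA-binding ubiquitin ligase that destabilises mRNA, had 26 and 21 control counts against 0 and 7 knockdown counts. PIK3R3 encodes a regulatory subunit of phosphoinositide 3-kinase, and its 6-exon circle had 9 and 34 control counts against 1 and 3. The single-exon circle of ARHGAP12, a GTPase-activating protein, had 18 and 18 against 2 and 3. Its first base is an internal start site in RefSeq's promoter table, downstream of the gene's outermost start. STAMBP, a deubiquitinase of endosomes, gave a 6-exon circle with 6 and 22 against 1 and 3. In each of the 4, both knockdown libraries lay below both controls, as the rule required.

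The libraries held 472428 and 556578 counts in controls 1 and 2, and 282737 and 390547 in knockdowns 1 and 2. Where a library had no count of a circle, up to 3 counts are possible, or 0.635 and 0.539 per 100000 for controls 1 and 2, and 1.06 and 0.768 for knockdowns 1 and 2. Control 1 stood apart from the other 3 libraries. It held 70.9% of its counts in exon circles and 19.7% in intron circles, against 84.9% to 85.7% and 9.93% to 10.6% in the others. Over the 10080 circles, levels in the controls had a rank correlation of 0.529, and levels in the knockdowns one of 0.832, given as a description. For many comparisons of shares or medians and many printed ratios, the value with a library left out is given too, but not for all. Gene-list shares and the hosts without a member were not recomputed without control 1. The table named no circle of HNRNPL itself, so the knockdown rests on the labels. Of 11 genes typical of this line, 7 had circles, with 626, 499, 176 and 228 counts in the 4 libraries, while KRT8, KRT18 and KRT19 had none. Of the markers of other cells, 5 leukocyte genes had no count, 5 fibroblast and 5 endothelial genes had at most 4 in any library, and 4 luminal hormone receptor genes had 44, 8, 6 and 4.

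The 538 members made up a small share of each library. They held 1.67% and 2.18% of all counts in controls 1 and 2, and 0.273% and 0.362% in knockdowns 1 and 2. Summed over members, the controls were 6.06 times the knockdowns. All 538 were seen in both controls by the rule, 358 in knockdown 1 and 454 in knockdown 2. Median levels over members were 2.33 and 3.05 counts per 100000 in controls 1 and 2, against 0.354 and 0.512 in knockdowns 1 and 2. These values restate how the members were chosen and are no test of the knockdown.

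**Figure D1:**
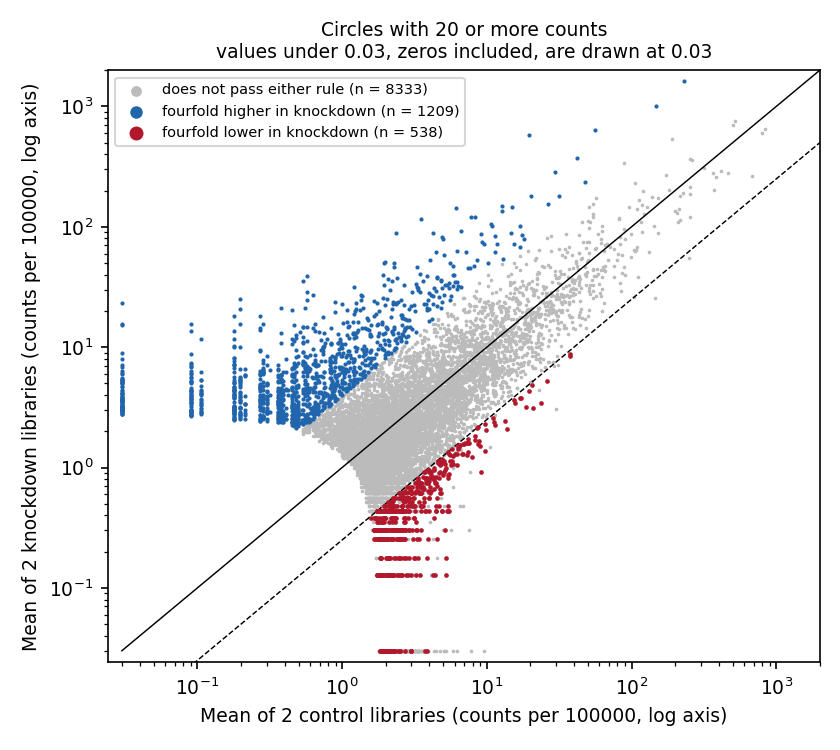
Mean of the control libraries (x) and of the knockdown libraries (y) for the 10080 circles with 20 or more counts, in counts per 100000 on log axes, with the line of equality and, dashed, the line at 4-fold lower. The 538 members (red) lie at or under the dashed line and mostly at low levels, with a median control mean of 2.56, and grey points under that line have overlapping groups.

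Members were 5.34% of the circles with 20 or more counts. Without the fold requirement, 2644 (26.2%) were lower in knockdown with no overlap between groups. Most members rested on few reads: 382 had 20 to 39 counts, 117 had 40 to 79 and 39 had 80 or more. In the knockdowns together, 40 members had no count, 313 had 1 to 3 and 33 had over 10. Among the 498 members with a knockdown count the ratio of means ranged from 4.01 to 41.0, with a median of 5.78. The exact 95% binomial interval of the ratio, taken from pooled counts, lay above 1 for all 538 and above 4 for only 23. The rule set the count minimum and the ratio on these same counts, so the intervals restate the choice of members and support nothing. Such intervals cover counting error only, since amplified copies carry no molecular identifiers.

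The 4-fold line separated circles that barely differed. Just inside it lay a circle of ATP7A and PGK1, a copper transporter and a glycolytic kinase, with a ratio of 4.01 from 23 and 33 control counts against 4 and 5. One of NEAT1 (13 and 4 against 1 and 2) and one of ASPH (31 and 58 against 4 and 11) had the same rounded ratio, and that of NEAT1 was 1.66 without control 1. Just outside lay circles of HAUS8 (15 and 13 against 1 and 4), HERC4 (12 and 13 against 2 and 2) and TNPO1 (10 and 11 against 0 and 4), at 3.9994, 3.9983 and 3.9964.

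The 12 members with the highest control means came from 11 hosts. Ubiquitin ligases and proteases, one of the gene lists described further on, gave 5 of the 12. Their levels in every library are given next, in counts per 100000, in the order control 1, control 2, knockdown 1 and knockdown 2.

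The circle with the most counts came from PHKB, which encodes a regulatory subunit of phosphorylase kinase, the activator of glycogen breakdown. It joined 14 exons into 1494 nt (chr16:47463882-47610920, plus strand), and the table also names 2 small genes inside its span. Its levels were 37.3, 38.1, 9.55 and 7.94, a control mean of 37.7 ± 0.591 (SD, n = 2) against 8.74 ± 1.14, or 4.31-fold. The groups were far apart and the replicates close.

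ZKSCAN1, a zinc finger transcription factor, hosts one of the best studied human circular RNAs, made of 2 exons and 668 nt long (chr7:100023419-100024307, plus strand). It was at 45.3, 29.5, 8.84 and 7.94, or 37.4 ± 11.2 against 8.39 ± 0.640, 4.46-fold lower in knockdown. Here the controls differed by more than the knockdowns did, and without control 1 the ratio was 3.51. GGCX, the carboxylase that uses vitamin K to modify clotting proteins, gave a 2-exon circle of 586 nt (chr2:85555484-85556260, minus strand). Its levels were 18.6, 33.8, 3.54 and 6.91, a ratio of 5.01. Control 2 was the higher control, and without control 2 the ratio was 3.56.

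PEX13, a docking protein for import into peroxisomes, gave a circle of a single exon of 695 nt (chr2:61031419-61032113, plus strand). It had 23.3, 24.1, 3.54 and 3.33, with means of 23.7 ± 0.560 and 3.43 ± 0.147 and a ratio of 6.90. This was the clearest separation among the 12, with an interval of the pooled ratio from 4.52 to 11.2. A 3-exon circle that began at the same acceptor was also a member, with 22 and 43 control counts against 3 and 6. The host had no other circle with 20 or more counts.

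The ubiquitin ligases RNF19A, UBE3C and UBR1 follow. RNF19A gave a 6-exon circle of 1561 nt (chr8:100264034-100288267, minus strand) at 21.8, 19.9, 4.24 and 2.05, a ratio of 6.63 that was 10.2 without knockdown 1 and 4.92 without knockdown 2. Its 2-exon circle with the same 5′ boundary was at 25.4, 14.01, 4.60 and 4.10, a ratio of 4.53, which was 3.22 without control 1. Both kept knockdown well under control, and 10 of the host's 11 circles with 20 or more counts were lower with no overlap. UBE3C, a ligase that extends ubiquitin chains at the proteasome, gave an 8-exon circle of 1150 nt (chr7:157201721-157231327, plus strand) at 16.9, 16.9, 3.54 and 4.10, a ratio of 4.43. Its controls were nearly equal. UBR1, which recognises destabilising N-terminal residues, gave a 6-exon circle of 651 nt (chr15:42950262-42966286, minus strand) at 17.6, 13.8, 3.54 and 3.33, a ratio of 4.57. The circle lay late in its gene, with its middle at 0.906 of the gene's length.

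UBAP2, which has a ubiquitin-associated domain, gave a single-exon circle of 1587 nt (chr9:33971651-33973237, minus strand) at 19.7, 21.4, 2.83 and 6.91, a ratio of 4.21. The knockdowns differed more from each other than the controls did, and the ratio was 2.97 without knockdown 1 and 7.26 without knockdown 2. USP54, of the ubiquitin-specific protease family, gave a 2-exon circle of 943 nt (chr10:73571421-73576361, minus strand) at 12.1, 25.0, 3.54 and 2.82, a ratio of 5.83 that was 3.80 without control 2. MATR3, a nuclear matrix protein that binds RNA and represses exons, gave a single-exon circle of 1089 nt (chr5:139307239-139308327, plus strand) at 16.9, 17.4, 4.95 and 2.56, a ratio of 4.57. That ratio was 6.71 without knockdown 1 and 3.47 without knockdown 2. TMEM87B, a membrane protein of the Golgi, gave a 13-exon circle of 1128 nt (chr2:112074912-112107840, plus strand) at 15.0, 15.8, 2.48 and 4.86, a ratio of 4.20. That ratio was 3.17 without knockdown 1 and 6.23 without knockdown 2. Among members with 40 or more counts, the controls were closest to each other for UBE3C, then for UBAC2, PHKB, MATR3 and PEX13. UBAC2, which has a ubiquitin-associated domain, gave a 4-exon circle with 53 and 63 control counts against 4 and 13. In all 12 the lowest control was above the highest knockdown, which the rule required.

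**Figure D2:**
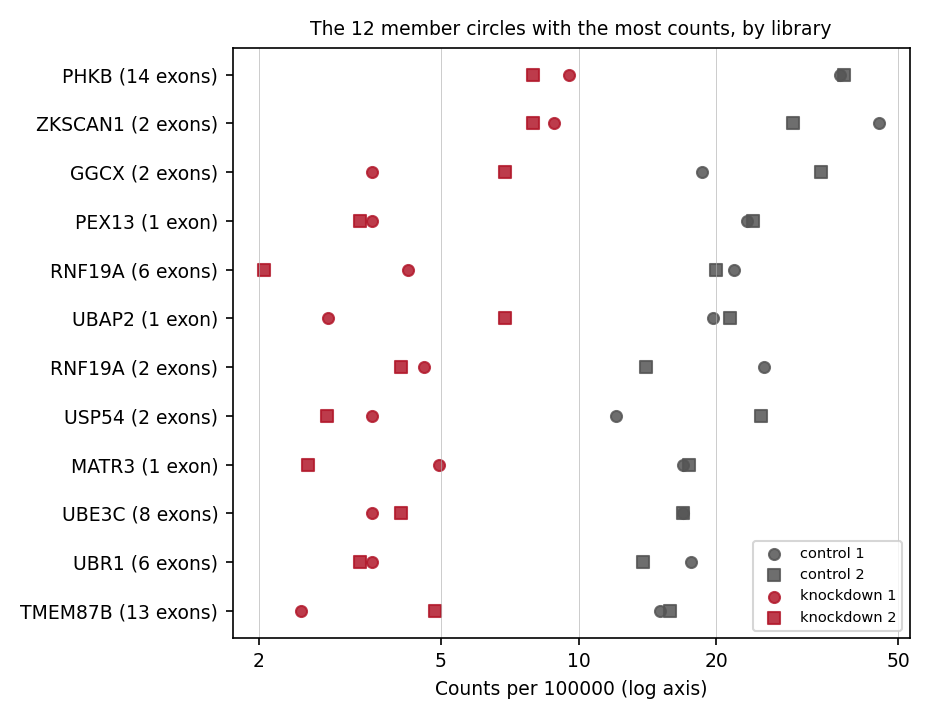
Counts per 100000 in each library, on a log axis, for the 12 members with the highest control means, with the host gene and exon number on the y axis. Control values (grey) lie at 12.1 or more and knockdown values (red) at 9.55 or less, and control 1 and control 2 nearly coincide for PHKB, PEX13, MATR3 and UBE3C.

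At the other end were members with no count in either knockdown. The 5 with the most control counts came from USO1, a vesicle tether of the Golgi, ORC3, a subunit of the origin recognition complex, CRLF3, CEP78, a centrosomal protein, and PRPF39, a splicing factor of the U1 particle. Their control counts were 26 and 12 for USO1, 14 and 25 for ORC3, where 3 of the host's 5 circles were 4-fold higher, 14 and 17 for both CRLF3 and CEP78, and 7 and 25 for PRPF39. Against 3 counts in each knockdown library, USO1 was at least 4.19-fold lower, ORC3 at least 4.08-fold, CRLF3 and CEP78 at least 3.29-fold and PRPF39 at least 3.27-fold. Of the 40 such members, 2 had a bound of 4 or more.

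Most members were exon circles, with a larger part of intron circles than in the comparison. Exon circles numbered 457 (84.9%, exact 95% binomial interval 81.6% to 87.9%), against 89.9% (89.2% to 90.5%) of the circles that did not pass and 93.5% of those 4-fold higher. Intron circles numbered 65 (12.1%, 9.45% to 15.1%), against 7.46% (6.94% to 8.01%) and 5.05%. A further 4 members were antisense, 3 intergenic and 9 lay on sequences outside the chromosomes, where the table gives no type. No test was made of these shares, because circles of a host share their source.

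The intron share was above the comparison within each stratum of total count. It was 13.1% against 9.36% at 20 to 39 counts, 10.3% against 6.49% at 40 to 79, and 7.69% against 4.63% at 80 or more, where it rested on 3 circles. With 1 circle per host it was 13.3% against 9.13%. Leaving out control 1, the library with most intron counts, it was 13.97% against 5.97%, and leaving out control 2 it was 22.6% against 6.00%. With a count minimum of 10 in place of 20, the shares were 12.3% against 12.9%, and the difference was gone.

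The 4 intron members with the most counts came from regulators of the actin cytoskeleton and of signalling. DIAPH3, a formin that nucleates actin filaments, had a circle of 927 nt (chr13:60066351-60067277, minus strand) at 16.9, 5.21, 2.83 and 2.30, a ratio of 4.31. Control 1 was the higher control, and the ratio was 2.03 without control 1 and 6.60 without control 2. ARHGAP32, also a GTPase-activating protein, had one of 2433 nt (chr11:129257957-129260389, minus strand) at 10.4, 9.16, 0.707 and 2.05, a ratio of 7.09 with the controls close together. That ratio was 4.77 without knockdown 1 and 13.8 without knockdown 2. ARHGAP12 had a 3-segment circle of 887 nt at 11.2, 6.11, 3.54 and 0.768, a ratio of 4.02. It was 2.84 without control 1, 11.3 without knockdown 1 and 2.45 without knockdown 2. SH3RF3, a scaffold with SH3 and RING domains, had one of 1234 nt at 6.14, 7.37, 1.06 and 1.54, a ratio of 5.20.

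All 4 antisense members were single segments. One opposite TXNRD1, which encodes thioredoxin reductase, had 19 and 79 control counts against 3 and 3. Opposite QSER1 there were 46 and 3 against 1 and 1, and the ratio of 16.9 was 1.77 without control 1 and 31.9 without control 2. Opposite MEX3C, an RNA-binding ubiquitin ligase, there were 9 and 30 against 4 and 1, and opposite DAGLB and KDELR2 20 and 9 against 1 and 4. In 3 of these 4 the higher control held more than 3 times the counts of the lower one. The 3 intergenic members, on chromosomes 21, 6 and 4, had 24, 19 and 20 control counts in all and 0, 2 and 3 in the knockdowns.

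The table marks some splice motifs with an asterisk, whose meaning is not given in the sources used here. Marked motifs were found in 167 members (31.0%, 27.2% to 35.1%), against 21.1% (20.3% to 21.9%) of the circles that did not pass and 12.7% of those 4-fold higher. With a count minimum of 10 the shares were 32.3% against 30.8%, and the difference was nearly gone. Without control 1 they were 33.1% against 17.3%, and without control 2 71.0% against 17.6%. Nearly all intron circles are marked, 61 of 65 members and 97.6% of the comparison. Among exon circles alone the marked share was 19.7% against 12.4% and 7.17%. Among unmarked circles, 371 of 7901 (4.70%) were members, and 1.08% of those were intron circles against 0.23% of the unmarked comparison.

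Members were shorter than the comparison, by an amount that depended on the libraries and on how hosts were counted. The median length was 1028 nt (quartiles 695 and 1596) against 1199 nt (794 and 1840), and 1035 nt for circles 4-fold higher. Within strata of total count the order was the same, with 852 nt against 1225 nt at 80 or more counts. Without control 1 it was 1070.5 nt against 1197 nt, and without control 2 1191.5 nt against 1204 nt, where the difference was nearly gone. Circles over 2000 nt made up 13.4% of members against 21.1%. Exon members had a median of 6 exons, against 7 in the comparison and 6 among the 4-fold higher, and 14.9% had 12 or more exons against 18.7%. Without control 1, knockdown 1 or knockdown 2, both medians were 6 exons, and without control 2 they were 5 and 6. When each host gave only its circle with the most counts, the medians were 1012 nt against 1024 nt and 6 exons against 5. The difference in length was then small and that in exon number had turned round.

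Single-exon circles made up 39 of the 457 exon members (8.53%, 6.14% to 11.5%), against 5.92% (5.43% to 6.45%) of the comparison. Among members with 80 or more counts the share was 23.5%, or 8 of 34, against 7.98%. Taking 1 circle per host, the order was reversed, at 10.6% against 12.5%. Without control 1 the shares were 6.01% and 5.73%. Without control 2 they were 20.4% and 6.57%. Control 1 exceeded control 2 in 21 of the 39 (53.8%), and in 213 of 508 single-exon circles of the comparison (41.9%). Over circles of every kind it did so in 166 of all 538 members (30.9%) and in 30.7% of the comparison. Whether the content of control 1 plays a part in the single-exon share was not tested. PEX13, UBAP2 and MATR3 are examples with similar controls. OSBPL8, a lipid transfer protein between the endoplasmic reticulum and plasma membrane, had 38 and 10 control counts against 1 and 2.

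**Figure D3:**
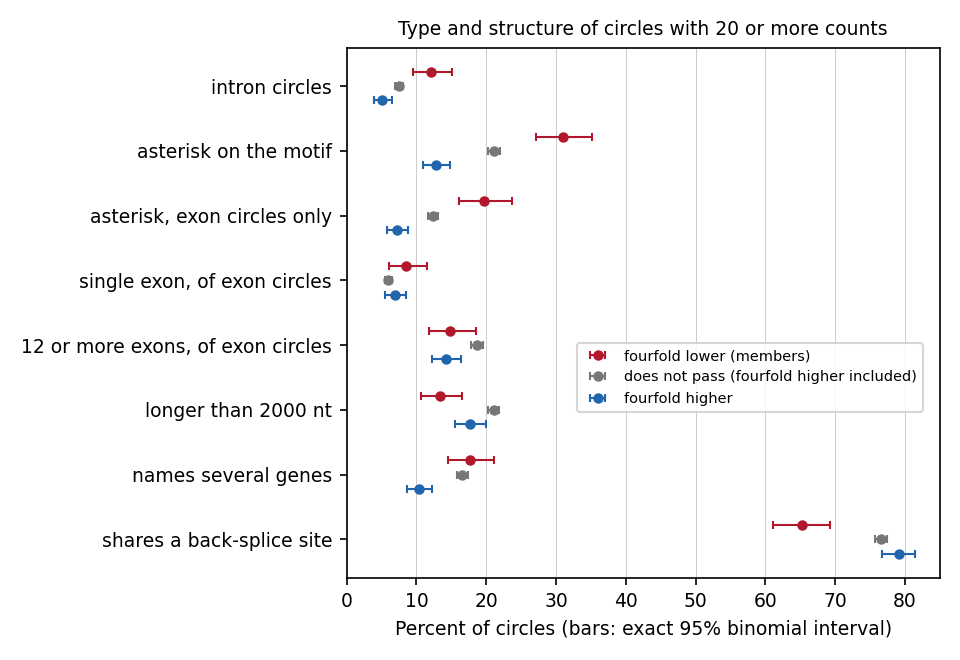
Percent of circles with each property among members (red), circles that do not pass (grey) and circles 4-fold higher in knockdown (blue), with exact 95% binomial intervals as bars. Members lie to the right of grey for intron circles (12.1% against 7.46%) and marked motifs (31.0% against 21.1%), and to the left for circles longer than 2000 nt (13.4% against 21.1%) and for shared back-splice sites (65.2% against 76.7%).

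The shortest member was a circle of MINDY4, a deubiquitinase, with 3 exons and 317 nt. It had 18 and 18 control counts against 2 and 2. The member with the most exons, 28 in 4675 nt, came from CEP192, a scaffold for centrosome assembly. It had 42 and 33 control counts against 4 and 5, a ratio of 5.50 with no overlap between groups.

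Along their hosts, members lay near the middle. For the 423 members that could be placed on 1 host of the RefSeq gene table, the median position was 0.540 of the gene's length (95% interval 0.501 to 0.578), counted from its start. For the comparison it was 0.507 (0.501 to 0.514), and for circles 4-fold higher 0.475. The order turned round without control 1 (0.494 against 0.507), without control 2 (0.471 against 0.503) and with 40 counts (0.483 against 0.498). Without knockdown 2 both medians were 0.507. Their hosts were shorter, with a median gene length of 78903 nt against 100318 nt. With 1 circle per host the lengths were 81107 nt and 83146 nt, and that difference was nearly gone. Members spanned a median of 15958 nt of the genome against 18985 nt. By chromosome the share of members ranged from 1 of 81 circles (1.23%) on chromosome 22 to 16 of 186 (8.60%) on chromosome 20. None of the 11 mitochondrial circles was a member.

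The share of circles with a back-splice site in common was lower among members, with no test made. A boundary in common with any other circle of 20 or more counts was found for 351 members (65.2%, 61.0% to 69.3%), against 76.7% (75.8% to 77.5%) of the comparison. Of the members, 19 (3.53%) shared a site with a circle that was 4-fold higher. The 23.9% of the comparison is not a like value, because it includes those 1209 circles, each counted as sharing a site with itself. For circles that were lower without overlap by less than 4-fold, the share was 6.17%. The share with any common site was 60.5% at 20 to 39 counts and 78.6% at 40 to 79, where the comparison had 68.8% and 80.9%. With 1 circle per host it was 58.6% against 49.6%, so the order depended on how hosts were counted.

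The members came from many hosts. A single gene was named for 428 of them, and these came from 338 hosts, of which 278 held 1 member, 42 held 2 and 18 held 3 or more. A further 95 named several genes, 12 named none and 3 were antisense to 1 gene. Circles of a host often overlap and share sites, and joining those that overlap on a strand left 439 separate loci. Long noncoding RNA alone was named by 14 members (2.60%) against 1.36% of the comparison.

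Member hosts were mostly hosts whose other circles were lower too. When the member circles were left out and the rest of each host was summed, 324 hosts could be measured. Of these, 204 (63.0%) were lower in knockdown with no overlap and 26 (8.02%) higher. Hosts with no member numbered 4249, of which 35.0% were lower and 18.0% higher by the same rule. Only 2344 hosts, member hosts included, had a circle with 20 or more counts, so many of the 4249 rested on rarer circles summed. The host sets were not matched for counts. The median log2 ratio of knockdown over control was -0.67 for the other circles of member hosts and -0.46 for hosts without a member. Without control 1 the first of these was -0.51. The summed values are relative to the library totals, so fewer circles of a host and less RNA of it cannot be told apart.

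Within a host the member was seldom the main circle. Of 256 member hosts with 2 or more circles of 20 or more counts, the circle with the most counts was a member in 40 (15.6%). No expected share was computed, and most members had only 20 to 39 counts. In 48 of the 256 every circle was lower with no overlap, and in 115 every circle had a lower knockdown mean. The member is lower by the rule, and the same counts were not made for other hosts. For 82 hosts the member was the only circle with 20 or more counts. A circle 4-fold higher was present in 41 member hosts (12.1%) and in 23.5% of other hosts. These shares are not alike. The 82 hosts with only the member could hold no 4-fold higher circle, and in every member host the member itself was already lower.

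GPSM2, which encodes a protein that orients the mitotic spindle, was one of the pair of hosts with 6 members, the highest number. It had 23 circles of 20 or more counts, all with a lower knockdown mean, 19 with no overlap and 6 of them members. The largest member had 10 exons and 1486 nt (chr1:108882580-108904254, plus strand) and was at 8.26, 18.5, 1.77 and 3.07, a ratio of 5.53. Another with 10 exons, which began at an acceptor further upstream, was at 4.87, 12.6, 1.06 and 2.05. In both, control 2 was more than 2 times control 1, and the ratios without control 2 were 3.41 and 3.13. The 17 other circles of the host, summed, were 2.17-fold lower.

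MPZL1, a transmembrane glycoprotein of the cell surface, also gave 6 members, of 11 circles. These fell into multi-exon and single-segment circles. A 3-exon and a 4-exon circle had 22 and 13, and 18 and 35 control counts, against 2 and 1, and 3 and 3. The other 4 were single segments of 1068 to 1526 nt that lay close to the gene's end, between 0.944 and 0.966 of its length, each with boundaries of its own and a marked motif. Their control counts were 42 and 9, 30 and 6, 17 and 3, and 11 and 10, so that 3 of the 4 leaned on control 1. The one with the highest ratio of all members, 41.0, had 0 and 1 knockdown counts, an interval from 5.73 to 1344 and a ratio of 12.6 without control 1, 69.4 without control 2 and 20.5 without knockdown 1.

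SELENOI, the enzyme that makes phosphatidylethanolamine from ethanolamine, gave 5 members of 8 circles. All 8 began at the same acceptor and differed in their last exon, and all were lower with no overlap. The member with the most counts had 10 exons and was at 5.50, 10.96, 1.06 and 2.56, a ratio of 4.55. That ratio was 6.05 without control 1, 3.04 without control 2, 3.21 without knockdown 1 and 7.76 without knockdown 2. The 6-exon member was at 8.68, 6.29, 1.41 and 1.79, a ratio of 4.67. The other 3 members had between 22 and 56 control counts and 1 to 10 in the knockdowns.

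NEAT1, the long noncoding RNA that scaffolds paraspeckles, gave 5 members of 10 circles, all with a marked motif. They used a few boundaries in the second part of the gene, 3 starts and 3 ends in all. The 4-exon member of 422 nt was at 5.93, 4.49, 0.707 and 1.28, and the 3-exon member of 329 nt at 5.08, 3.59, 1.06 and 0.512. Control 1 was the higher control for all 5, with ratios without it between 1.66 and 7.02, and all 10 circles had a lower knockdown mean. HNRNPC, which packages nascent pre-mRNA, gave 3 members of 6. Its 3-exon circle of 440 nt (chr14:21230319-21234229, minus strand) was at 8.04, 19.4, 2.12 and 2.05, a ratio of 6.58 that was 3.86 without control 2, and a 4-exon circle that shares the 3′ boundary had 15 and 42 control counts against 1 and 2.

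**Figure D4:**
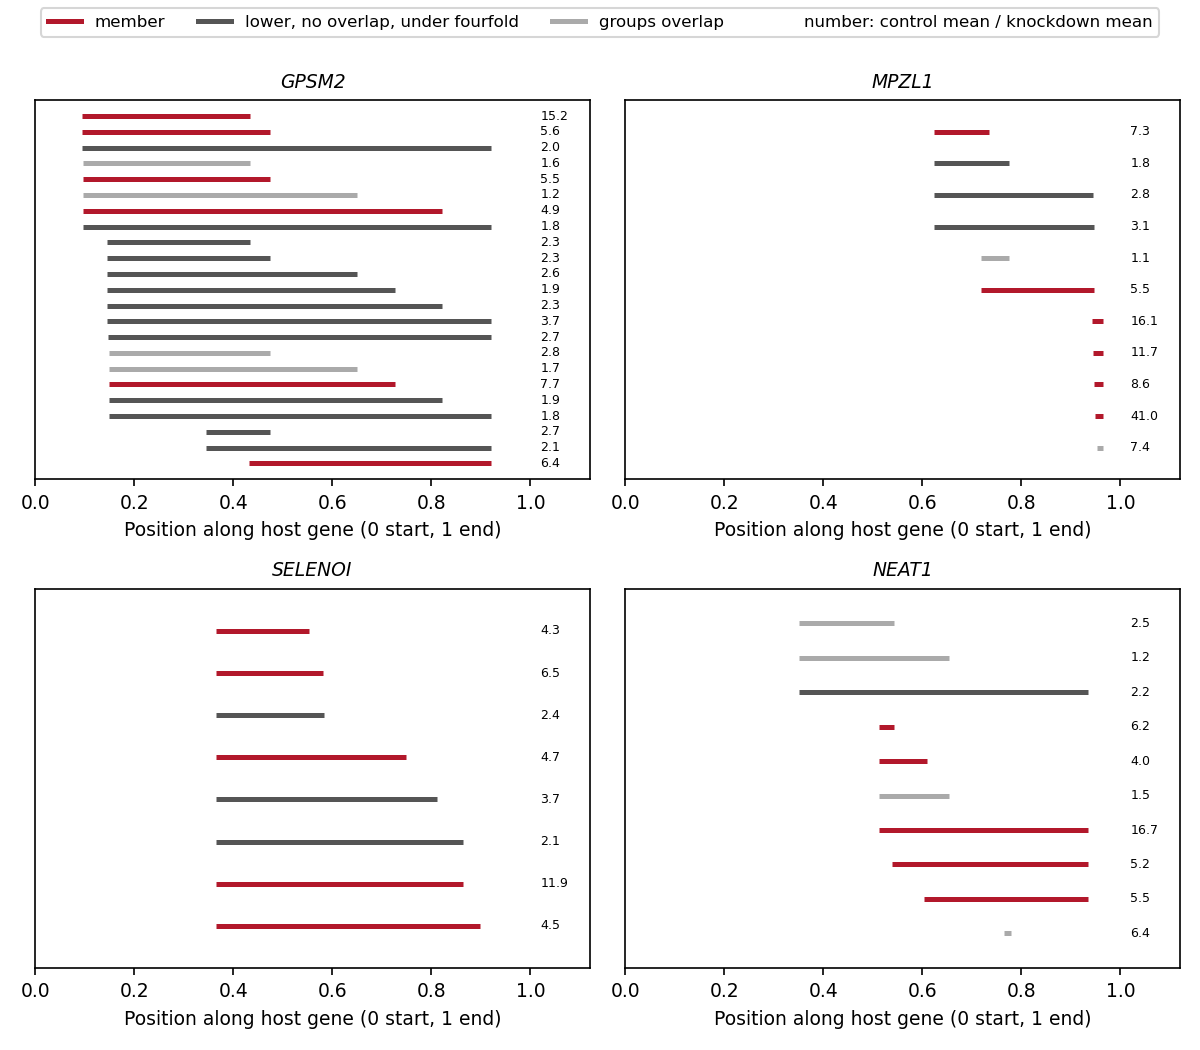
Circles with 20 or more counts of the 4 hosts GPSM2, MPZL1, SELENOI and NEAT1, drawn as bars from 5′ to 3′ boundary along the gene (0 start, 1 end), with the ratio of control over knockdown mean at the right. Members (red) of GPSM2 and SELENOI lie among other circles that are lower with no overlap (dark grey), and 4 of MPZL1 are short segments near the gene's end.

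RAB12 and NBAS, both of membrane traffic, gave 3 and 4 members. RAB12 encodes a small GTPase. Its members, 1 exon circle and 2 intron circles, ended at the same donor as its main circle, which fell short of the rule with 338 and 755 control counts against 70 and 108. The 4-exon member was at 3.39, 11.5, 1.41 and 2.05, a ratio of 4.30 that was 1.96 without control 2 and 6.64 without control 1. NBAS encodes a tether for vesicles that return to the endoplasmic reticulum, and its 4 members had 19 to 34 control counts and 1 to 5 in the knockdowns, in the first part of the gene. All 14 of its circles had a lower knockdown mean.

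Of the 41 member hosts that also had circles 4-fold higher, the 6 with the most counts over all circles are described. SENP6, a protease that removes SUMO chains, had 22 circles with 20 or more counts, of which 1 was a member and 15 were 4-fold higher. The member was a single exon of 1231 nt (chr6:75633581-75634811, plus strand), with 11 and 14 control counts against 1 and 1. Another single exon of the host, of 428 nt (chr6:75702645-75703072, plus strand), was at 3.18, 35.9, 521 and 647 per 100000. DNAH14, an axonemal dynein heavy chain, had 1 member and 39 circles 4-fold higher among 79. Its member, an intron circle, had 2 and 17 control counts against 1 and 1, and without control 2 its ratio was 1.39.

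ZMYM4, a zinc finger protein, had a 14-exon member with 6 and 14 control counts against 0 and 1, and a 3-exon circle with 1 and 38 against 284 and 513. BIRC6, an inhibitor of apoptosis with ubiquitin ligase activity, had 2 members named for it alone, both late in the gene, with 15 and 35 against 3 and 4 and 8 and 15 against 2 and 1. A 3-exon circle of the same host had 7 and 15 against 32 and 45. CEP192 had, beside its 28-exon member, a 10-exon one with 14 and 12 against 1 and 2, and a 6-exon circle with 1 and 8 against 24 and 30. MGA, a partner of MAX in transcription, had a member with 6 and 14 against 0 and 0, at least 2.07-fold lower, and a single-exon circle with 2 and 6 against 9 and 23. In each of these 6 hosts the groups of the named circles did not overlap, in opposite directions, as the rules and the choice of hosts required.

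**Figure D5:**
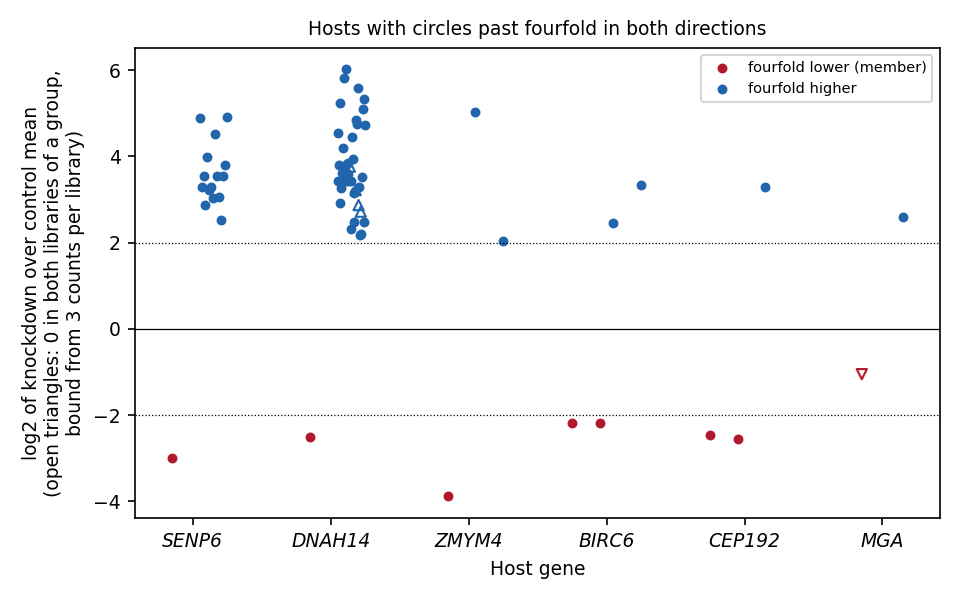
log2 of the knockdown over the control mean for members (red) and for circles 4-fold higher in knockdown (blue) of 6 hosts that had both, with dotted lines at 4-fold. Open triangles are bounds for circles with no count in either library of a group, as for the MGA member, and DNAH14 and SENP6 have 39 and 15 circles 4-fold higher beside 1 member each.

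Gene groups differed in how many of their circles were members. The groups were lists of well-known genes, drawn up with earlier results of these data known, and their counts are a description. Over all 9985 circles that are not antisense, 534 (5.35%) were members and the median log2 ratio of knockdown over control was -0.15. Shares by list ranged from 1.37% to 12.8%.

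Lipid and phospholipid enzymes had 12 members of 94 circles (12.8%, 6.77% to 21.2%), with a median log2 ratio over the list of -0.90. Of the 94, 42 were lower with no overlap, against 2634 of 9985 over all circles. The members came from 10 hosts. CHKA, the choline kinase that begins phosphatidylcholine synthesis, gave 3, of which the 9-exon circle (chr11:68061953-68081457, minus strand) was at 6.14, 7.91, 1.41 and 1.79, a ratio of 4.38. ACSL4, which activates polyunsaturated fatty acids, gave a 14-exon circle with 23 and 42 control counts against 3 and 4. ACSL3, of the same family, had 9 and 19 against 1 and 3. SQLE, the squalene epoxidase of cholesterol synthesis, had 15 and 23 against 3 and 1, and HMGCS1, earlier in that pathway, 10 and 8 against 1 and 1. ELOVL5, a fatty acid elongase, had 21 and 17 against 3 and 3. The remaining 4 hosts were PLD1, FIG4, INPP5F and LPCAT2, with 24 to 46 control counts each and 1 to 4 in the knockdowns.

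Splicing factors and other RNA-binding proteins had 15 members of 207 circles (7.25%, 4.11% to 11.7%), with a list median of -0.34. Beside the 3 of HNRNPC they included 2 of SRSF11, a serine-arginine splicing factor, with 16 and 15 against 0 and 4 and 6 and 14 against 2 and 0. DDX17, an RNA helicase, had 15 and 18 against 1 and 0. STAU1, which binds double-stranded RNA, had 9 and 39 against 4 and 1. HNRNPLL, the close relative of HNRNPL, had a 7-exon circle with 3 and 15 against 0 and 2. RBM39, FXR1, ZC3H14, SMG1, FMR1, CELF1 and TIAL1 gave 1 member each, with 18 to 26 control counts.

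Adhesion genes had 7 members of 79 circles (8.86%, 3.64% to 17.4%), 1 from each of 7 hosts. Integrins gave 3 of them, ITGAV with 17 and 15 against 0 and 3, ITGB1 with 8 and 15 against 0 and 1, and ITGB6 with 14 and 6 against 1 and 1. The member of CD47, a surface signal that restrains phagocytes, was a single exon of 984 nt at 4.23, 3.23, 0.354 and 1.28, a ratio of 4.57 that was 2.92 without knockdown 1 and 10.6 without knockdown 2. CTNNA1, AFDN and PTPRJ gave the others, and all 7 were exon circles.

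Protein kinase and receptor genes had 17 members of 258 (6.59%), ubiquitin enzymes 26 of 431 (6.03%), small GTPase regulators 15 of 287 (5.23%) and solute carriers 7 of 106 (6.60%). PIK3CB, a catalytic subunit of phosphoinositide 3-kinase, gave 2 among 9 circles, of which 1 was 4-fold higher, with 12 and 34 against 1 and 6 and 14 and 12 against 1 and 3. TRIO, a kinase that also activates small GTPases, had 10 and 38 against 2 and 1. The carriers were taken by the name prefix SLC, so the antisense gene SLC44A3-AS1 counts among their hosts. A 4-exon circle that names MRPS6, the inositol transporter SLC5A3 and a further gene had 20 and 21 against 1 and 3. Its counts cannot be assigned to the transporter alone. These shares lay close to the 5.35% over all circles.

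Cell division and repair genes had the fewest. DNA damage response genes had 5 members of 366 circles (1.37%, 0.445% to 3.16%), while 97 (26.5%) were 4-fold higher, and the list's median log2 ratio was 0.48. REV1, a translesion polymerase, had 22 and 55 against 5 and 3. Its ratio of 5.73 was 3.67 without control 2 and 9.46 without knockdown 1. LIG3, a DNA ligase, had 12 and 13 against 0 and 0, at least 2.67-fold lower. EXO1, FANCI and RAD54B gave the other 3, with 19 to 24 control counts. Mitosis genes had 6 members of 313 (1.92%, 0.707% to 4.13%), of which 3 came from CDC16, a subunit of the anaphase-promoting complex. Its intron circle of 1299 nt had 30 and 26 against 1 and 2, a ratio of 12.7 with an interval from 3.97 to 61.0.

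Chromatin regulators had 11 members of 272 (4.04%), centrosome and cilium genes 14 of 294 (4.76%), zinc finger genes 11 of 283 (3.89%), membrane traffic genes 9 of 341 (2.64%) and cytoskeleton genes 7 of 249 (2.81%). EZH2, the methyltransferase of Polycomb, gave a 9-exon circle of 1232 nt (chr7:148817877-148847305, minus strand) at 2.33, 7.37, 0.707 and 0.512. Its ratio of 7.95 was 3.82 without control 2, the higher control, and 12.1 without control 1. ATRX, a chromatin remodeler, had 6 and 17 against 0 and 0, while 5 of the host's 7 circles were 4-fold higher. Hosts of widely studied circular RNAs had 7 members of 132 (5.30%) and 50 circles 4-fold higher (37.9%). Beside ZKSCAN1, these were 2 each of ANKRD17 and CAMSAP1 and 1 each of MAN1A2 and ZNF609, with at most 29 control counts.

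Leaving out a control lost members mainly through the count minimum. Without control 1, 262 of the 538 still had 20 counts and 244 of these passed, among 544 circles that did. Without control 2, 131 still had 20 counts and 102 passed, among 442. Without knockdown 1, 524 had 20 counts and 367 passed, and without knockdown 2, 495 had 20 counts and 427 passed. The controls were within 3 times of each other for 75.3% of members, 68.5% of the comparison and 40.9% of circles 4-fold higher. Whether the content of control 1 plays a part in which circles are members was not tested.

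Across all circles with 10 or more counts, edgeR's quasi-likelihood test with Benjamini-Hochberg adjustment called 0 of 21576 lower (0.0%), and so 0 of the 538 members. The smallest adjusted p of a member in that fit was 0.0949. A fit without 1 library leaves a lone library in a group, assumed to vary like the other group. Its calls support nothing, so only median log2 ratios are given here. For members these were -2.58 and -2.53 without controls 1 and 2, and -2.36 and -2.76 without knockdowns 1 and 2. Over all circles in those fits they were -0.10, -0.08, -0.40 and -0.51. At an unadjusted p under 0.05 the test on all 4 libraries found 920 lower (4.26%), 367 of them members. DESeq2 called 151 lower (0.7%), 61 of them members. The rule and these fits use the same contrast, so these values describe the members and support nothing.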

How the data were processed

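Circular RNA was counted in 4 long-read libraries. The authors deposited raw counts per circle, called with CIRI-long per the file's columns; its version and filters are not given in the sources used here. The submitters' processing notes name GRCh38.p14 and DESeq2. Counts were scaled to 100000 per library, and circles were chosen by the rule stated above. The members and gene lists were chosen with earlier results of these data known. Circles with 10 or more counts were fitted with edgeR 4.0.16 (glmQLFit, TMM, Benjamini-Hochberg, threshold 0.05) in R 4.3.3 and with DESeq2 1.42.0. The fit was tested on simulated data. Hosts were placed by the RefSeq table of GRCh38.p14, within 1000 nt of the gene's span. Named circles were the 12 members with the highest control means, the highest of each type and list, the hosts with most members, the highest with no knockdown count, those beside the threshold, the shortest and that with most exons, those with the closest controls, and hosts with circles in both directions. Others were chosen after their values were seen. Alternatives were other count minimums, folds, scalings and left-out libraries. The authors' scaled table was not used. CA repeats were not analysed here, and the longest member is not reported here.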

Additional observations from a re-analysis of the deposited data

How the results depend on the processing

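The number of circles that pass was 1759 with 10 counts, 156 with 40 counts, 891 at 3-fold, 171 at 8-fold and 272 under the replicate block, where both same-numbered pairs had to be 4-fold lower (266 of them members). Same-numbered deviations had a correlation of 0.0142. It cannot decide whether same-numbered libraries were paired, because many circles hold few counts and the controls differed more from each other than the knockdowns did. The labels do not say whether they were paired. Other scalings, and settings chosen after seeing the data (unmarked motifs, totals of exon circles), gave 371 to 632. Leaving out each library gave 442 to 739.

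Median length was 1100 nt with 10 counts, 915.5 with 40 counts, 923 at 40 to 79 and 852 at 80 or more, and 1044 to 1191.5 without each library. Median exon number was 5.5 with 40 counts, 4.5 at 80 or more, and 5 to 6 without each library. The single-exon share was 11.8% with 40 counts, 23.5% at 80 or more, and 6.01% to 20.4% without each library. Relative position was 0.483 with 40 counts, 0.615 at 8-fold, 0.387 at 80 or more, and 0.471 to 0.540 without each library. Exon shares ran from 62.2% to 87.7% and intron shares from 10.4% to 22.6% without each library, and intron circles were 7.69% at 80 or more counts. The share with a site also used by a circle that does not pass, 61.9%, was 68.8% with 10 counts, 56.1% at 8-fold, 74.4% at 40 to 79, 71.8% at 80 or more, and 22.6% to 62.6% without each library. For the lowest of these, and for the other values that moved, the cause was not tested.

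In edgeR's fit the members past an adjusted p of 0.05 numbered 11 with 20 counts, 39 with 40 counts, 19 with no filter and 150 with the replicate block, against 0, and DESeq2 gave 61. Over all circles, edgeR called 13 of 10080, 61 of 4944, 69 of 190152 and 399 of 21576 lower in these settings. DESeq2 called 151 of 21576. The rule used the same contrast, so the members' calls support nothing. Fits with a library left out have a lone library in a group, assumed to vary like the other group. Their range, given next, is therefore no evidence of a change. Leaving out each library gave 0 to 386. The log2 ratio of the hosts' other circles, -0.67, was -0.66 to -0.51 without each library, a check chosen after seeing the data. Planned CA-repeat densities were not run. Most members hold under 40 counts, which limits the precision of each ratio.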
